A study of Homo sapiens with 6 samples.

Results

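The miRNA genes of the chromosome 19 placental cluster were examined on miRNA arrays of Panc-1 cells with and without TGF-β. Probes belonged to the cluster if any of their names was miR-498, miR-512, miR-515 to miR-527 (with or without a letter), miR-1283 or miR-1323, in any arm or copy, a rule that reads names and not measured values. Of the 2565 miRNA probes on the array, 52 met this rule, of which 19 were named for a 5p arm, 25 for a 3p arm and 8 without an arm. They carried 62 names, because 5 probes were each labelled with several miRNAs. Panc-1 is an established epithelial line from a human pancreatic ductal adenocarcinoma. Total RNA was taken after 72 h from 3 control samples (0 ng/mL TGF-β) and 3 samples given 10 ng/mL TGF-β, and each was labelled with Cy5 and run on 1 array. The labels name no genetic change in either group. The labels do not say whether the replicates were separate cultures, and the study's general statement that experiments were independent does not name the arrays, so the p-values measure only the spread between these samples, which may be technical. Judging by how the scanner files are named, the 3 control arrays lay on 1 slide and the 3 TGF-β arrays on another, so treatment and slide cannot be told apart in any comparison here.

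The cluster is a primate-specific array of miRNA genes that is imprinted, with expression from the paternal copy, and it is known above all for its activity in the trophoblast of the placenta and in early embryonic cells. It is silent in most adult tissues and has been found active in some tumours. Each gene yields a hairpin from which a 5p and a 3p miRNA can be cut, and bases 2 to 8 of a mature miRNA, the seed, direct it to messenger RNAs. Many 3p members carry seeds that resemble those of the miR-17 and miR-302 families, which act in the cell cycle and in stem cells. TGF-β is a cytokine that drives epithelial-mesenchymal transition in pancreatic cancer cells.

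Because the genes arose by repeated duplication, their mature sequences differ by few bases, and this bears on which probe can be read as which miRNA. In RefSeq (GRCh38.p14), 56 of the 62 names were matched to a mature sequence, covering 47 of the 52 probes. These were 47 distinct sequences with 30 distinct seeds, and each probe with several names held a single distinct sequence among its matched names. The probe letters themselves were not used here. The 2 members that passed the test below are shown 5′ to 3′, with the seed in capitals, beside the members of equal length that differ from either by at most 3 bases, and miR-519e-3p, which holds a run of 14 of their bases at a shifted position.
miR-517c-3p: aUCGUGCAuccuuuuagagugu
miR-519a-3p: aAAGUGCAuccuuuuagagugu
miR-519b-3p: aAAGUGCAuccuuuuagagguu
miR-519c-3p: aAAGUGCAucuuuuuagaggau
miR-520c-3p: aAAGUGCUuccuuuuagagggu
miR-519e-3p: aAGUGCCUccuuuuagaguguu
miR-517a-3p: aUCGUGCAucccuuuagagugu
Counted from the 5′ end, miR-519a-3p differed from miR-517c-3p by U2A and C3A, both within the seed. From position 4 to position 22 the pair shared a run of 19 bases, gugcauccuuuuagagugu, and of 2370 mature miRNA names in the RefSeq table only these 2 held it. miR-519b-3p differed from miR-519a-3p by U20G and G21U, and miR-520c-3p by A8U, within the seed, and U20G. miR-517a-3p, which shares its mature sequence and its probe with miR-517b-3p, differed from miR-517c-3p by U12C alone.

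A set of 5p members, most of them detected on all arrays, is shown next. In capitals is a stretch of 15 bases, the longest that miR-518c-5p, miR-524-5p and miR-526b-5p share, and these were picked out after their values were seen.
miR-518c-5p: ucucuggAGGGAAGCACUUUCUg
miR-524-5p: cuacaaAGGGAAGCACUUUCUc
miR-526b-5p: cucuugAGGGAAGCACUUUCUgu
miR-526a: cucuagAGGGAAGCACUUUCUg
miR-518f-5p: cucuagAGGGAAGCACUUUCUc
The miR-526a probe is also named for miR-520c-5p and miR-518d-5p. Of the 19 probes for 5p arms, 5 held the stretch AGGGAAGCACUUUCU, and 0 of 2225 array miRNAs outside the cluster held it. The 3 miRNAs that define the stretch were detected on all 6 arrays, and of the other two the miR-526a probe was detected on 6 and miR-518f-5p on 4. Of the 14 5p probes without the stretch, 2 were detected on all 6 arrays. How the 3 were chosen sets this contrast in part, so it cannot show a link between stretch and detection.

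Most of the cluster lay at the lower edge of what the arrays could measure. Signals are given here in SD of the array's blank control spots above the mean of the blank spots of the same array, with 5% of blank spots left out at each end, and a probe was called detected above 2 SD. The median cluster signal was 1.77, 1.87 and 2.28 SD in control and 2.16, 2.98 and 1.73 SD on the TGF-β arrays. Over all miRNAs the medians lay between 3.24 and 4.95 SD. The number of cluster probes detected was 20, 26 and 28 of 52 in control and 27, 32 and 24 with TGF-β, and these ranges overlapped. As shares, 38.5% to 61.5% of cluster probes were detected per array, against 59.7% to 69.7% of all miRNAs.

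Detection varied from array to array for the greater number of members. Of the 52 probes, 10 were detected on no array (19.2%, against 20.4% of all miRNAs), 31 on 1 to 5 arrays, and 11 on all 6 (21.2%, against 50% of all miRNAs). The 10 probes never detected were those for miR-515-5p, miR-516b-5p, miR-518e-3p, miR-518f-3p, miR-519c-3p, miR-520c-3p, miR-520f-3p, miR-523-3p, miR-525-3p and miR-520b. Among the 5p probes, 17 of 19 were detected on at least 1 array and 6 on all 6. Among the 3p probes, 18 of 25 were detected on at least 1 array and 4 on all 6, and of the 8 probes without an arm, 7 and 1. A probe was tested if 1 of the groups had it detected on all 3 arrays, which 17 members and 56.8% of all miRNAs met. Of the 17, 6 were not detected on all 6 arrays, so they passed through 1 group only.

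**Figure D1:**
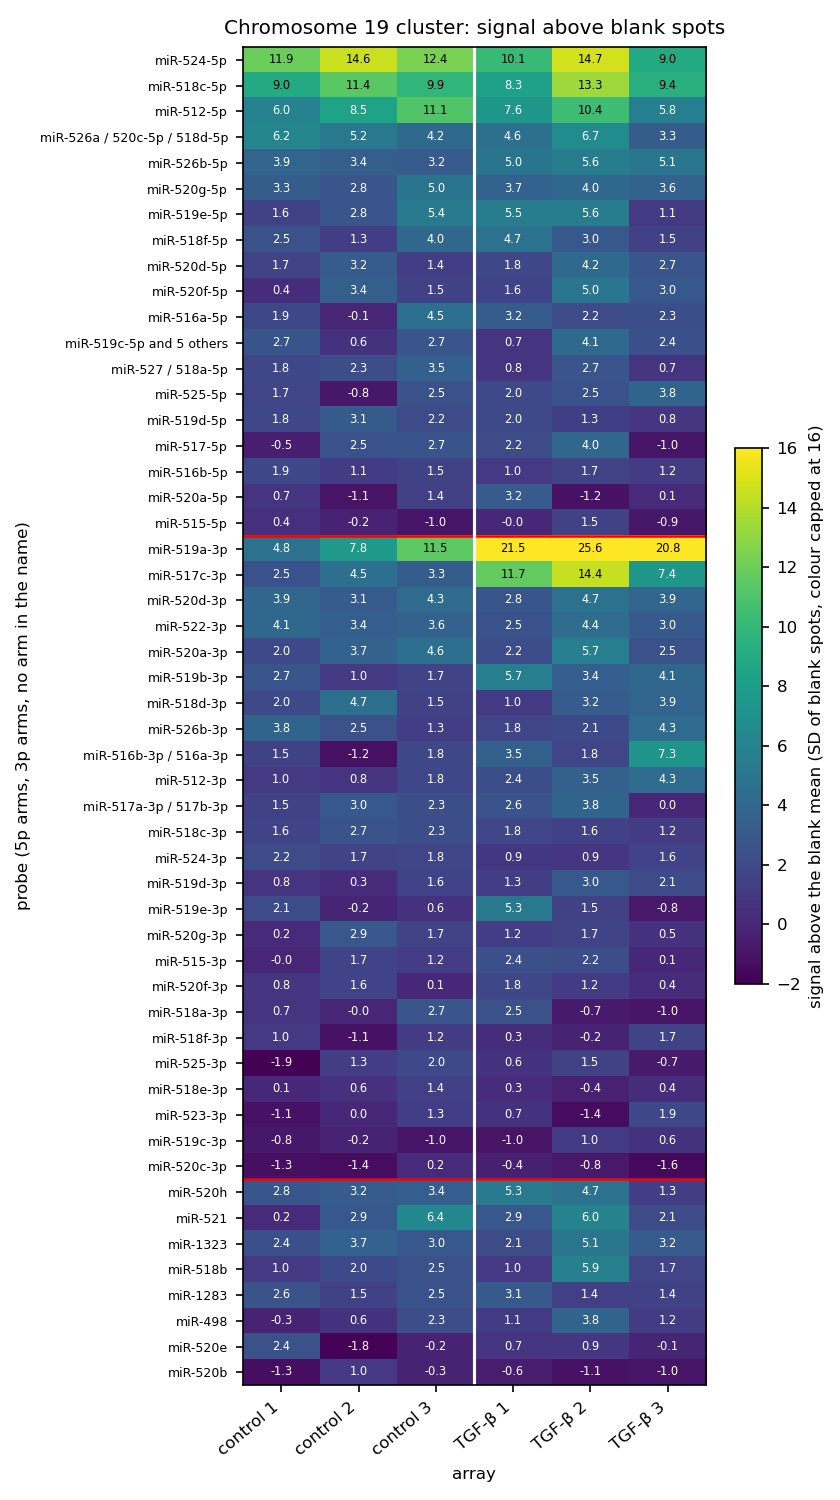
Signal of each of the 52 cluster probes (rows, grouped by arm and ordered by mean signal) on the 6 arrays (columns), in SD of the blank spots above their mean, printed in each cell and coloured up to a cap of 16. Only miR-519a-3p exceeded 20 SD, on the 3 TGF-β arrays, and most probes lay within a few SD of the blank spots.

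The blank spots set a lenient limit, as other control spots showed. Of the blank spots themselves, 5.62% to 7.81% per array exceeded 2 SD. Of the 32 spots per array named Negative Control, 16 to 24 exceeded it, and the brightest of them reached 7.09, 6.23 and 7.54 SD in control and 7.25, 7.22 and 9.26 SD on the TGF-β arrays. Only 2 to 5 cluster probes per array were brighter than every negative control (3.85% to 9.62%, against 31.2% to 41.6% of all miRNAs), and 47 of the 52 were not on any array. The 5 that were on at least 1 array were miR-518c-5p (6 arrays), miR-519a-3p (2 control and 3 TGF-β), miR-524-5p (3 control and 2 TGF-β), miR-512-5p (2 control and 2 TGF-β) and miR-517c-3p (2 TGF-β). On no array did the other 47 exceed the brightest negative control, and by that limit a level in the cells could not be told from background. The median negative control was lower, between 2.08 and 3.2 SD per array.

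TGF-β against control was compared to see which members moved with the treatment. Of the 17 tested members, miR-517c-3p and miR-519a-3p were higher with TGF-β and 0 were lower (limma, adjusted p under 0.05 over 1457 tested miRNAs). Both are 3p arms known from the placenta, and they carry different seeds. Over all tested miRNAs, 38 were higher (2.61%) and 20 lower (1.37%), or 3.98% in either direction. The median log2 difference was -0.09 over the 17 members and -0.01 over all tested miRNAs, and 6 of the 17 were above 0. An unadjusted p under 0.05 was reached by 4 members, against 13.7% of all tested miRNAs. All 4 were higher, but miR-512-3p and miR-519b-3p were tested only through the TGF-β group. In a separate fit over the miRNAs detected on all 6 arrays, which held 11 members, 2 were higher and 1, miR-524-5p, was lower at that level (limma unadjusted p = 0.0486, against 0.0553 over the 1457 miRNAs).

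The miR-519a-3p signal was 4.81, 7.77 and 11.5 SD in control and 21.5, 25.6 and 20.8 SD on the TGF-β arrays (8.02 ± 3.34 and 22.7 ± 2.62, SD, n = 3 each). Every TGF-β array was above every control array, and all 3 were above the brightest negative control. In the authors' processed units the values were 13, 21 and 30 in control and 59, 65 and 55 with TGF-β. The log2 difference was 1.44 with a standard error of 0.23 and a 95% interval of 0.93 to 1.96, a 2.72-fold rise (limma adjusted p = 0.0048).

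For miR-517c-3p, the signal was 2.51, 4.55 and 3.32 SD in control and 11.7, 14.4 and 7.43 SD on the TGF-β arrays (3.46 ± 1.03 and 11.2 ± 3.53, SD, n = 3 each). The groups did not overlap. All 3 control arrays and TGF-β replicate 3 were dimmer than the brightest negative control, so the size of the fold rests on levels not told from those spots. The processed units were 7, 12 and 9 in control and 32, 36 and 20 with TGF-β. The log2 difference was 1.54 with a standard error of 0.25 and a 95% interval of 0.98 to 2.09, a 2.90-fold difference (limma adjusted p = 0.0048). For each of the 2 miRNAs alone, the exact 2-sided permutation test over the 6 arrays gave p = 0.1, the smallest that 3 against 3 arrays allow.

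Both the differences and the calls varied with the processing. Without any background correction both still passed (limma adjusted p = 0.00902 for miR-517c-3p and 0.00154 for miR-519a-3p), with log2 differences of 0.27 and 0.43. With each spot's local background subtracted (normexp, which adds an offset of 50 intensity units to spots that read 19.9 to 35 here), the log2 differences were 0.03 for miR-517c-3p and 0.04 for miR-519a-3p (limma adjusted p = 0.987 for both), with 0 of all miRNAs called and 0 members at an unadjusted p under 0.05. The local background of the miR-519a-3p spot was 20.5, 16.4 and 19.7 intensity units in control and 27, 19.7 and 24 on the TGF-β arrays. Without TGF-β replicate 2, the array that detected the most miRNAs (69.7%, against 59.7% to 62.5% on the other 5), the log2 differences were 1.49 for miR-517c-3p and 1.51 for miR-519a-3p, and neither passed (limma adjusted p = 0.0644 and 0.0551). Neither passed with wider filters or the methods' t-test either, with log2 differences of 1.54 and 1.44 as before.

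**Figure D2:**
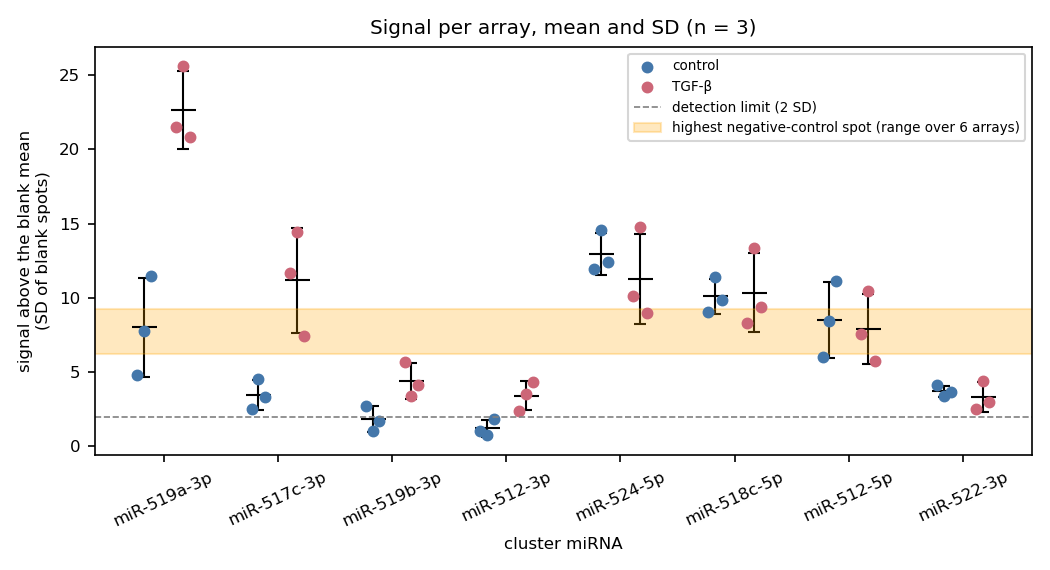
Signal of 8 cluster miRNAs on each array (points), in SD of the blank spots above their mean, with the group mean and SD (n = 3) as a bar, the detection limit of 2 SD as a dashed line and the brightest negative-control spot as a band (6.23 to 9.26 SD over the 6 arrays). The TGF-β points of miR-519a-3p lie above its control points and the band, those of miR-517c-3p lie above its control points, and miR-524-5p, miR-518c-5p and miR-512-5p overlap between the groups.

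Of the remaining 15 tested members, 3 were apart between the groups on the normalized scale. miR-512-3p, whose pair of genes lies first in the cluster, was detected on 0 of 3 control arrays and on 3 of 3 TGF-β arrays, the only member with that pattern. Its signal was 1.02, 0.76 and 1.81 SD in control and 2.35, 3.51 and 4.30 SD with TGF-β, so the TGF-β arrays were just above the detection limit and all 6 below the brightest negative control. Its log2 difference did not pass the test (0.90, standard error 0.39, limma adjusted p = 0.324), and it was 0.18 with a floor of 2 in place of 1, 0.08 without a background correction and 0.00095 with the local background. Because this miRNA was tested only through the group in which it was detected, its direction was given by the filter.

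The other two had lower values on all 3 TGF-β arrays and did not pass the test. In normalized units (signal above the blank mean after quantile normalization), miR-524-5p was 8.53, 9.71 and 7.91 in control and 7.26, 7.45 and 6.0 with TGF-β, a log2 difference of -0.34 (standard error 0.16, limma adjusted p = 0.375). In SD of the blank spots its arrays overlapped, at 11.9, 14.6 and 12.4 in control and 10.1, 14.7 and 9.0 with TGF-β. miR-522-3p was 2.97, 2.20 and 2.42 normalized units in control and 1.77, 2.16 and 2.04 with TGF-β, with a log2 difference of -0.34 (standard error 0.27, limma adjusted p = 0.668). In SD of the blank spots its groups overlapped, at 4.09, 3.36 and 3.64 in control and 2.53, 4.42 and 3.00 with TGF-β, and the brightest array was a TGF-β array. Over all tested miRNAs, 8.79% were apart and higher with TGF-β and 10.1% apart and lower, while the cluster had 3 and 2 of 17.

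Of the other bright 5p members, miR-518c-5p and miR-512-5p overlapped between the groups. miR-518c-5p gave 9.02, 11.4 and 9.88 SD in control and 8.30, 13.3 and 9.40 SD with TGF-β, with a log2 difference of -0.11 and a 95% interval of -0.45 to 0.23 (limma adjusted p = 0.85). miR-512-5p, from the same hairpins as miR-512-3p, gave 6.01, 8.45 and 11.1 SD in control and 7.56, 10.4 and 5.75 SD with TGF-β, with a log2 difference of -0.23 and an interval of -0.71 to 0.26. Both intervals exclude a rise as large as that of miR-519a-3p at its lower limit of 0.93. The miR-526a probe gave 6.18, 5.23 and 4.25 SD in control and 4.65, 6.68 and 3.28 SD with TGF-β, with a log2 difference of -0.30 (standard error 0.26, limma adjusted p = 0.697). miR-526b-5p gave 3.87, 3.42 and 3.16 SD in control and 4.97, 5.58 and 5.08 SD with TGF-β, with a log2 difference of 0.44 (standard error 0.25, limma adjusted p = 0.484). Its groups were apart on this scale and overlapped after normalization.

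By arm, 0 of 7 tested 5p members passed, with a median log2 difference of -0.11, and 2 of 7 tested 3p members passed. The 3p median, 0.90, is the value of miR-512-3p, which no control array detected. Over members detected on all 6 arrays the medians were -0.17 for 6 5p members and 0.64 for 4 3p members. Of these 4, miR-517c-3p (1.54) and miR-519a-3p (1.44) passed. The others, miR-520d-3p (-0.17) and miR-522-3p (-0.34), had the opposite sign and did not pass, so no member lay near 0.64. The tested 5p members not given above, miR-516a-5p and miR-520g-5p, had log2 differences of -0.09 and -0.11. The 3 tested members without an arm, miR-520h, miR-521 and miR-1323, had differences between -0.05 and 0.04. The median standard error was 0.27 over the cluster and 0.18 over all tested miRNAs. No test between the arms was run, and 3 of the 7 tested 3p members, miR-512-3p, miR-519b-3p and miR-520a-3p, were tested through 1 group only.

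**Figure D3:**
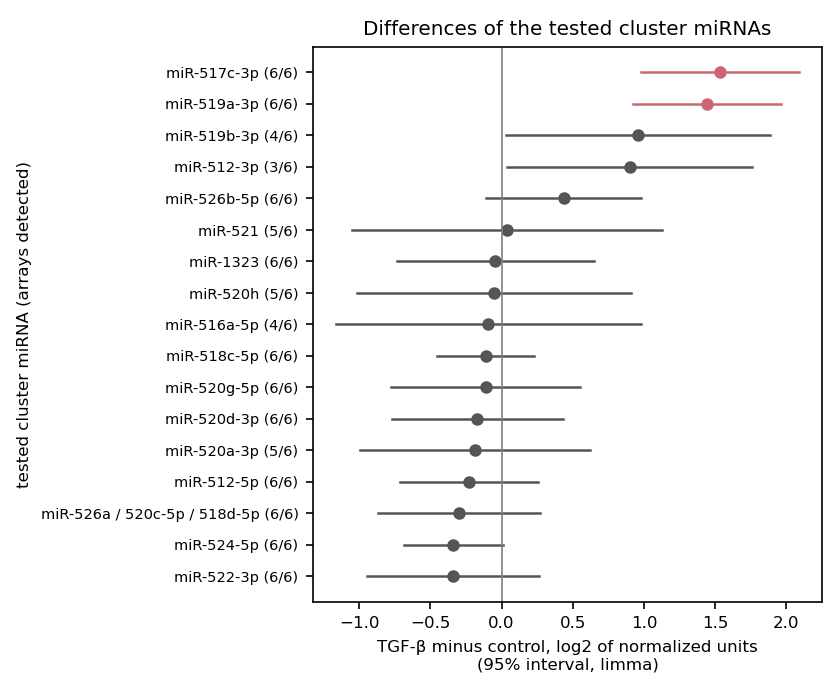
Log2 difference (TGF-β minus control, normalized units) of the 17 tested members with 95% intervals from limma; the number of arrays on which each was detected stands beside its name. The 2 members past an adjusted p of 0.05 are in red, and the intervals of most other members include 0.

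The related members whose sequences are printed were then set beside the 2 called ones, a comparison chosen after the values were seen. Each probe was described by the longest run of bases its miRNA shares with the 19 bases common to miR-517c-3p and miR-519a-3p. miR-519b-3p shared 16 of them, and its signal was 2.74, 1.01 and 1.73 SD in control and 5.70, 3.36 and 4.11 SD with TGF-β. These were apart, but after normalization they overlapped, at 2.04, 1 and 1.2 units in control and 4.05, 1.60 and 2.78 units with TGF-β. Its mean signal differed by 2.57 SD and its log2 difference was 0.96 with a standard error of 0.42, which did not pass (limma adjusted p = 0.332). miR-519e-3p shared 14 and had a mean difference of 1.15 SD, set by 1 array at 5.27 SD, and it was not tested. The 43 probes with a shared run under 14 had mean differences from -1.66 to 3.51 SD, with a median of 0.26 SD. The highest of these, above that of miR-519b-3p, was the probe for miR-516b-3p and miR-516a-3p. It shared 6 bases and was not tested. miR-512-3p shared 4 bases and differed by 2.19 SD.

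The miR-517a-3p and miR-517b-3p probe, whose miRNA differs from miR-517c-3p by U12C, shared 10 bases and gave 1.53, 2.97 and 2.30 SD in control and 2.62, 3.81 and 0.02 SD with TGF-β. These arrays overlapped, and the probe was not tested because it was detected on every array of neither group. miR-520c-3p shared 11 bases and was detected on no array, at -1.29, -1.42 and 0.19 SD in control and -0.40, -0.80 and -1.60 SD with TGF-β, a mean difference of -0.09 SD. miR-519c-3p, which carries the seed of miR-519a-3p, was detected on no array either.

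The longest run that any of 2225 array miRNAs outside the cluster shared with these 19 bases was 8. Whether the 2 called probes each read their own miRNA, or partly the same RNA, was not tested. Of the 3 probes with the seed AAGUGCA, miR-519a-3p passed, miR-519b-3p did not pass and miR-519c-3p was not detected.

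On the genome, the cluster held 46 miRNA genes over 95752 bases, chr19:53666679-53762430 (GRCh38.p14, RefSeq). MIR517C lies at chr19:53741313-53741407. miR-519a-3p is cut from MIR519A1 at chr19:53752397-53752481 and MIR519A2 at chr19:53762344-53762430, the last gene of the cluster. MIR519A1 starts 10990 bases past the end of MIR517C. The RefSeq interval of the long non-coding RNA gene LOC124904765, chr19:53738839-53752638, spans 6 miRNA genes, MIR518A2, MIR517C, MIR520H, MIR521-1, MIR522 and MIR519A1, and MIR519A2 lies within that of LOC124904766. Whether the miRNA genes are exonic or intronic there was not examined.

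The genes between MIR517C and MIR519A1 gave no call. miR-520h was at 2.84, 3.20 and 3.37 SD in control and 5.32, 4.71 and 1.32 SD with TGF-β, a log2 difference of -0.05 on the normalized scale (limma adjusted p = 0.987). miR-521, which is also made from a second gene, was at 0.18, 2.93 and 6.42 SD in control and 2.90, 6.04 and 2.12 SD with TGF-β, a log2 difference of 0.04 (limma adjusted p = 0.994). miR-522-3p, given above, did not pass. The probe that includes miR-522-5p and miR-519a-5p was not tested, with mean signals of 2.02 SD in control and 2.41 SD with TGF-β. miR-517-5p, which MIR517C shares with MIR517A and MIR517B, was not tested either, at means of 1.56 and 1.73 SD. Both groups of miR-520h and miR-521 overlapped, and their intervals, -1.02 to 0.91 and -1.05 to 1.13, are wide.

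**Figure D4:**
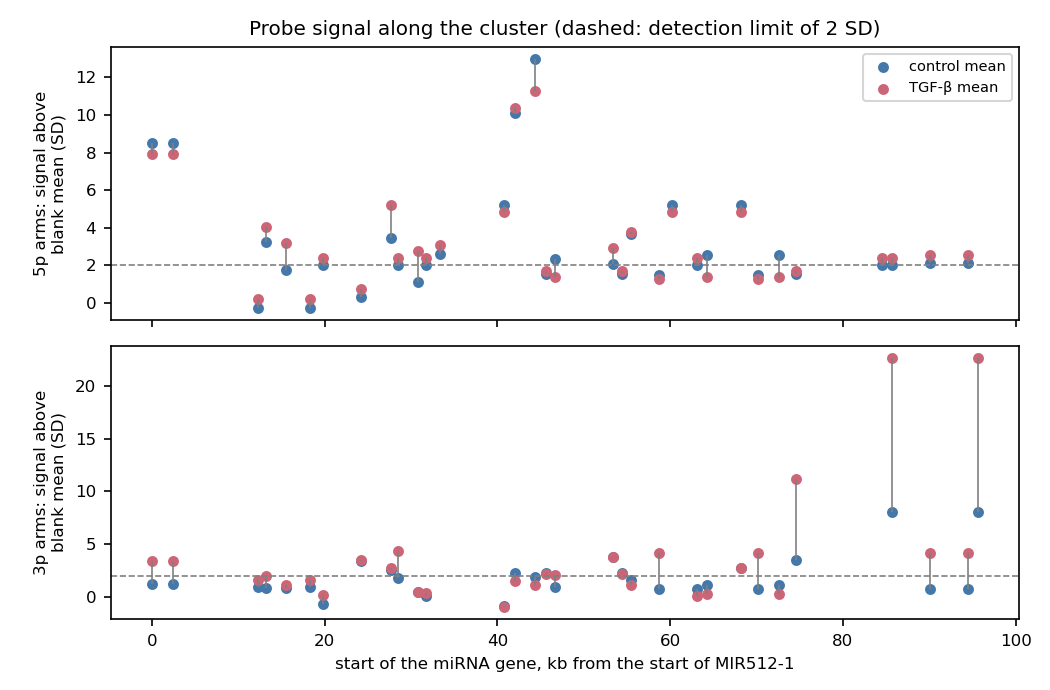
Mean signal in control (blue) and TGF-β (red) samples (n = 3 each), in SD of the blank spots above their mean, against the start of each miRNA gene in kb from the start of MIR512-1, for 5p arms (top) and 3p arms (bottom, on its own scale). A probe for miRNAs of several genes is drawn at each gene, so miR-519a-3p appears at both of its genes; MIR517C and these 2 genes lie in the far part of the cluster.

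Among miRNAs related by place or seed, no list member was called. The neighbouring miR-371 to miR-373 genes start 25245 bases beyond the cluster, and their miRNAs mark early embryonic cells. Of their 8 probes, 4 were tested and 0 passed, with 1 at an unadjusted p under 0.05. That 1 was miR-373-5p, at 232 to 490 SD and brighter than any cluster probe (log2 difference 0.31, limma adjusted p = 0.0954). The other tested neighbours lay between 4.28 and 23.8 SD. The miR-302 and miR-367 miRNAs, of embryonic stem cells, had 12 probes, of which 5 were detected on no array, 1 was tested and 0 passed, adjusted or not. Of 13 array miRNAs outside the cluster with the seed AAAGUGC or AAGUGCU, 12 were listed (all but miR-302e, which was detected on no array), and of these 6 were tested and 0 passed (1 at an unadjusted p under 0.05), with log2 differences between -0.19 and 0.10. The cluster probes with a matched sequence and these seeds were 5: miR-520a-3p and miR-520d-3p were tested without passing, miR-519d-3p and miR-526b-3p were detected on some arrays, and miR-520c-3p on none. miR-520a-3p was at 1.97, 3.69 and 4.6 SD in control and 2.24, 5.68 and 2.47 SD with TGF-β, a log2 difference of -0.19 (standard error 0.37, limma adjusted p = 0.901).

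The label of the cells was set against marker miRNAs. The 5 miRNAs common in cultured cells (miR-21-5p, let-7a-5p, miR-16-5p, miR-24-3p, miR-23a-3p) were detected on all 6 arrays between 3343 and 38080 SD, and of these miR-23a-3p was higher and miR-16-5p lower with TGF-β in the same test (log2 differences 0.29 and -0.32). Of 6 blood cell miRNAs, 3 were detected on all 6 arrays, 5 were tested and 0 passed (1 at an unadjusted p under 0.05), with miR-486-5p between 22.1 and 34.6 SD, miR-150-5p between 12.3 and 19.5 SD, and the other 4 between -0.27 and 10.1 SD. Correlations between arrays over the miRNAs detected on all 6 lay between 0.984 and 0.992.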

How the data were processed

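The authors deposited 6 scanner files, which list a linear median intensity and a local background for 3200 spots, and a table of processed intensity values for 2565 miRNAs. The array processing is not given in the sources used here. Rebuilding showed how that table was made: a trimmed mean (5% off each end) of the 320 blank spots was subtracted, detected miRNAs were scaled to a median of 25 per array, and signals not over the limit of 2 SD of the blank spots are empty. The rebuilt values differed by at most 0.5, and the empty values were identical.

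Here the same blank mean was subtracted, spots the scanner flagged (3 miRNA spots, 0 of the cluster) were dropped, the miRNA probes were quantile normalized, values under 1 were set to 1, and log2 values were compared in R 4.3.3 with limma 3.58.1 (lmFit, then eBayes with a trend). P-values were adjusted by Benjamini-Hochberg over 1457 miRNAs detected on all 3 arrays of 1 group or both. The local background was kept as an alternative, because on spots above 200 units its median ratio to the spot's signal was 0.434 to 0.99 per array. Arrays have no read depth, and each comparison rests on 3 arrays per group. The fit was tested on simulated data. Plots used Python 3.11.15 and matplotlib 3.10.9.

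The members and lists were chosen with earlier results of these data known, although the rule for members reads names alone. Named with values are members past an adjusted p of 0.05, those with groups apart, the 5 largest differences of the rest, the 5 brightest, those detected on every array of 1 group and on none of the other, and miR-517c-3p and miR-519a-3p. Others named were chosen after their values were seen. Alternatives covered background, scaling, floor, filter, test, replicate block and each array left out. Sequences and positions came from RefSeq (GRCh38.p14).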

Additional observations from a re-analysis of the deposited data

How the results depend on the processing

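miR-517c-3p and miR-519a-3p were higher with TGF-β in 23 of 23 and 24 of 24 alternatives and passed in 18 of each. The count of members higher with TGF-β, 2, became 0 with the local background, 0 with all miRNAs detected on at least 1 array, 0 without a filter, 0 with the methods' t-test after Benjamini-Hochberg adjustment (3 members at the unadjusted threshold), 1 without the trend in limma, where miR-519a-3p did not pass at the same log2 difference of 1.44 (limma adjusted p = 0.0572), and 1 over the 852 miRNAs above every negative control, a filter chosen after seeing the data under which miR-517c-3p was not tested. Leaving out each array gave 0 to 2; it was 0 without TGF-β replicate 2, where the log2 differences of miR-517c-3p and miR-519a-3p were 1.49 and 1.51 (limma adjusted p = 0.0644 and 0.0551). Under the wider filters and the t-test they stayed at 1.54 and 1.44, without a background correction they were 0.267 and 0.431 and both passed, and with the local background they were 0.0284 and 0.0435. More miRNAs were tested under the wider filters, and the cause of the other changes was not tested. The members' median log2 difference, -0.09, was 0.00095 with the local background and 0.00055 with the authors' values, and ranged from -0.17 to 0.28 with an array left out. The number of members detected, 17, was 11 with a limit of 3 SD, 11 on all 6 arrays, 42 on at least 1 array, 3 above every negative control, and 18 to 24 with an array left out. Differences of other tested members that changed sign, none past the threshold, were these. With the local background they were -0.0027 for miR-519b-3p, 0.0201 for miR-518c-5p, 0.0045 for miR-520d-3p, 0.0028 for miR-520g-5p, 0.0048 for miR-520h, -0.016 for miR-521 and 0.0018 for miR-1323. Without a background correction they were 0.011 for miR-516a-5p and 0.0112 for miR-520h, with median scaling 0.00395 for miR-516a-5p and 0.0155 for miR-1323, and without normalization -0.0125 for miR-521. With the authors' values they were 0.0051 for miR-518c-5p, 0.096 for miR-520g-5p, 0.633 for miR-520h, -0.38 for miR-521 and 0.109 for miR-1323. A floor of 0.5 gave 0.242 for miR-516a-5p, and a floor of 2 gave 0.28 for miR-520h, -0.158 for miR-521 and 0.0469 for miR-1323. With an array left out, the ranges were -0.486 to 0.0499 for miR-520a-3p, -0.446 to 0.345 for miR-516a-5p, -0.327 to 0.11 for miR-520g-5p, -0.5 to 0.463 for miR-520h, -0.465 to 0.553 for miR-521 and -0.186 to 0.168 for miR-1323. Over all miRNAs, 38 higher and 20 lower became 0 and 0 with the local background, 21 and 10 on at least 1 array, 14 and 6 without a filter, 22 and 9 without the trend, and 12 and 5 with the methods' t-test, and the lower count was 12 with median scaling, 8 without normalization and 6 with the authors' values. With an array left out, 18 to 32 were higher and 7 to 19 lower.

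Judging by the scanner files' names, the replicate number follows the array's position on its slide. Deviations of same-numbered arrays correlated by 0.13, 0.11 and -0.03, not all above 0.1, and the arrays were not treated as paired. With the replicate number as a block, 2 members were higher and 0 lower, with a median of -0.09, log2 differences of 1.54 and 1.44, and 39 higher and 22 lower over all miRNAs.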
